A study of Mus musculus with 4 samples.

Results

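The 48 genes described here encode proteins that copy DNA or supply its building blocks, together with E2f1, a transcription factor that drives many of them. They were named by symbol: the MCM helicase, the origin recognition complex, licensing and helicase-activating factors, the sliding clamp and its loader, single-strand binding proteins, polymerases and primase, Okazaki fragment enzymes and enzymes of deoxynucleotide synthesis. All 48 had a probe set annotated to that symbol alone, out of 18193 such genes, and the probe set that was brightest on average (log2 signal, all 4 arrays) stands for each gene. All 48 passed the filter on dim signals and so were among the 14445 genes tested.

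RNA came from CGR8, an established mouse embryonic stem (ES) cell line, grown on gelatin in medium with 15% knock-out serum replacement. In the group without LIF, 2 arrays held RNA of cells 2 days after a change to medium lacking leukemia inhibitory factor (LIF). In the group with LIF, 2 arrays held RNA of cells kept in medium with 1000 U/ml LIF, also at day 2. Both groups are of this 1 cell line. LIF is a cytokine that holds mouse ES cells undifferentiated through the transcription factor Stat3. Values are MAS5 signals, a linear measure of brightness per probe set. Nothing in the labels ties the arrays numbered 1 and 2 to separate cultures, so the p-values reflect how these arrays vary, and that variation may be technical.

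Before a cell can copy its DNA, the origin recognition complex, Cdc6 and Cdt1 load the ring-shaped Mcm2 to Mcm7 helicase onto origins in G1 phase. The kinase Cdc7 with Dbf4, together with Cdc45 and the GINS proteins, then turns the loaded ring into an active helicase, and polymerases with Pcna follow it. Mouse ES cells have a short G1 phase and spend much of their cycle in S phase. Many of these genes are known targets of E2F factors, which bind sites such as TTTCCCGC and TTTGGCGC near gene starts.

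The promoters of 5 members are shown because Orc1, Tk1 and Rrm2 had the smallest unadjusted p-values among the 48, and because those of Mcm3 and Mcm6 each held 2 matches to the E2F letters. The sequences are from RefSeq (GRCm38.p6), from 250 bases before to 50 after the gene start, 5′ to 3′ along the gene. Capitals mark TTTCCCGC, TTTGGCGC and the shorter TTCCCGC, which lies within the first, on either strand.
Orc1 (chr4:108579204-108579503, + strand): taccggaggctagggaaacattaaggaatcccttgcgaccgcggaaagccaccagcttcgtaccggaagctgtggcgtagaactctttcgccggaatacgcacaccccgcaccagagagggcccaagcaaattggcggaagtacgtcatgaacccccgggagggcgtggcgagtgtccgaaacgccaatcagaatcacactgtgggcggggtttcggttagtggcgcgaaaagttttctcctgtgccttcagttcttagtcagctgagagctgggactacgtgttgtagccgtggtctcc
Tk1 (chr11:117825965-117826264, - strand): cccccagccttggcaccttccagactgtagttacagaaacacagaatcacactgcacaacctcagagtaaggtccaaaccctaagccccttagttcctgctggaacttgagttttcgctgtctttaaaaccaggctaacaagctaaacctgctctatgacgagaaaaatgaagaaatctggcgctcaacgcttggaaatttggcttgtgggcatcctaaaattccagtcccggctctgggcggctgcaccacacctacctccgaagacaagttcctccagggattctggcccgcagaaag
Rrm2 (chr12:24708004-24708303, + strand): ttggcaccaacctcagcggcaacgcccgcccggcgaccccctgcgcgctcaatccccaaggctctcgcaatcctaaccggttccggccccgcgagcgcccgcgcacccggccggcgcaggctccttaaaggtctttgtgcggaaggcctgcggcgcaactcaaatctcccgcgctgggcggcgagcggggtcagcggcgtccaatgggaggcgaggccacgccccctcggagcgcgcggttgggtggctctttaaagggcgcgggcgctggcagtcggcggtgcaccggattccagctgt
Mcm3 (chr1:20820263-20820562, - strand): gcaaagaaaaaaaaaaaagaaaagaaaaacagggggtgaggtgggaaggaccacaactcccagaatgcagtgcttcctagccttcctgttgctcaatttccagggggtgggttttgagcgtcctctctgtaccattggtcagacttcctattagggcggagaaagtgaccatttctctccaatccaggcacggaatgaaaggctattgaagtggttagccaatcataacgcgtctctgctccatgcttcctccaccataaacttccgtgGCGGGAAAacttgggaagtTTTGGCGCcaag
Mcm6 (chr1:128359656-128359955, - strand): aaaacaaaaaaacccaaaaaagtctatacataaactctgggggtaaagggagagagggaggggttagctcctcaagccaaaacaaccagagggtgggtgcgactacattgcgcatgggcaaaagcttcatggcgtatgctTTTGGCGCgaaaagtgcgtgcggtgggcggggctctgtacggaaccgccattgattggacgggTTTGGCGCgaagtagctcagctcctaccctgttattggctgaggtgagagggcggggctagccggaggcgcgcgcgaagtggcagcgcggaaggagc
The windows of Orc1, Tk1 and Rrm2 held none of these letters. Other forms of E2F site were not searched for, so a window without a match may still hold one. The E2F counts that follow cover only TTTCCCGC and TTTGGCGC. Of the 48 members, 40 had 49 promoters in the RefSeq table, and 12 of these 40 genes had a match to TTTCCCGC or TTTGGCGC: Cdc6, Cdt1, Gins3, Mcm3, Mcm5, Mcm6, Mcm7, Orc3, Pola1, Pold1, Pole2 and Rfc3. By promoter, 24.5% of the 49 held a match, against 1.56% of all 32851 promoters in the table and 3.70% of the 4464 promoters of tested genes with a mean signal of 1000 or more. A match was present in 7 of the 18 genes with a promoter whose arrays were lower without LIF and did not overlap, and in 5 of the 22 others. The box CCAAT or its reverse complement, the letters bound by NF-Y, was in 51.0% of the members' promoters and 37.4% of all.

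Transcripts of the replication machinery gave bright signals in both groups and read slightly lower 2 days after LIF was removed. The median change over the 48 members was -0.16 on the log2 scale (without LIF minus with LIF), a signal 10.5% lower, while the median over all tested genes was 0.09. For 44 members the log2 change was below 0, as it was for 40.6% of all tested genes. Of tested genes with a mean signal of 1000 or more, 57.7% were below 0. For 23 members both arrays without LIF lay below both arrays with LIF, which held for 15.2% of all tested genes. For 1 member, Gins2, both arrays without LIF lay above both arrays with LIF, which held for 27.3% of all tested genes.

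No single member passed the test with group alone. With limma and Benjamini-Hochberg adjustment over all tested genes, 0 of the 48 had an adjusted p of 0.05 or less, and 0.145% of all tested genes did. At an unadjusted p of 0.05 or less there were 3 members, Orc1, Tk1 and Rrm2, against 10.9% of all tested genes. The changes were small: 14 members (29.2%) read at least 1.2-fold lower and 1 at least 1.2-fold higher, against 17.3% and 35.6% of all tested genes, and 1, Orc1, read at least 1.5-fold lower. The 95% interval of the change lay within 2-fold in either direction for 45 of the 48, and within 1.5-fold for 14. In RNA from whole cultures, fewer cells of a type and less RNA per cell cannot be told apart.

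**Figure D1:**
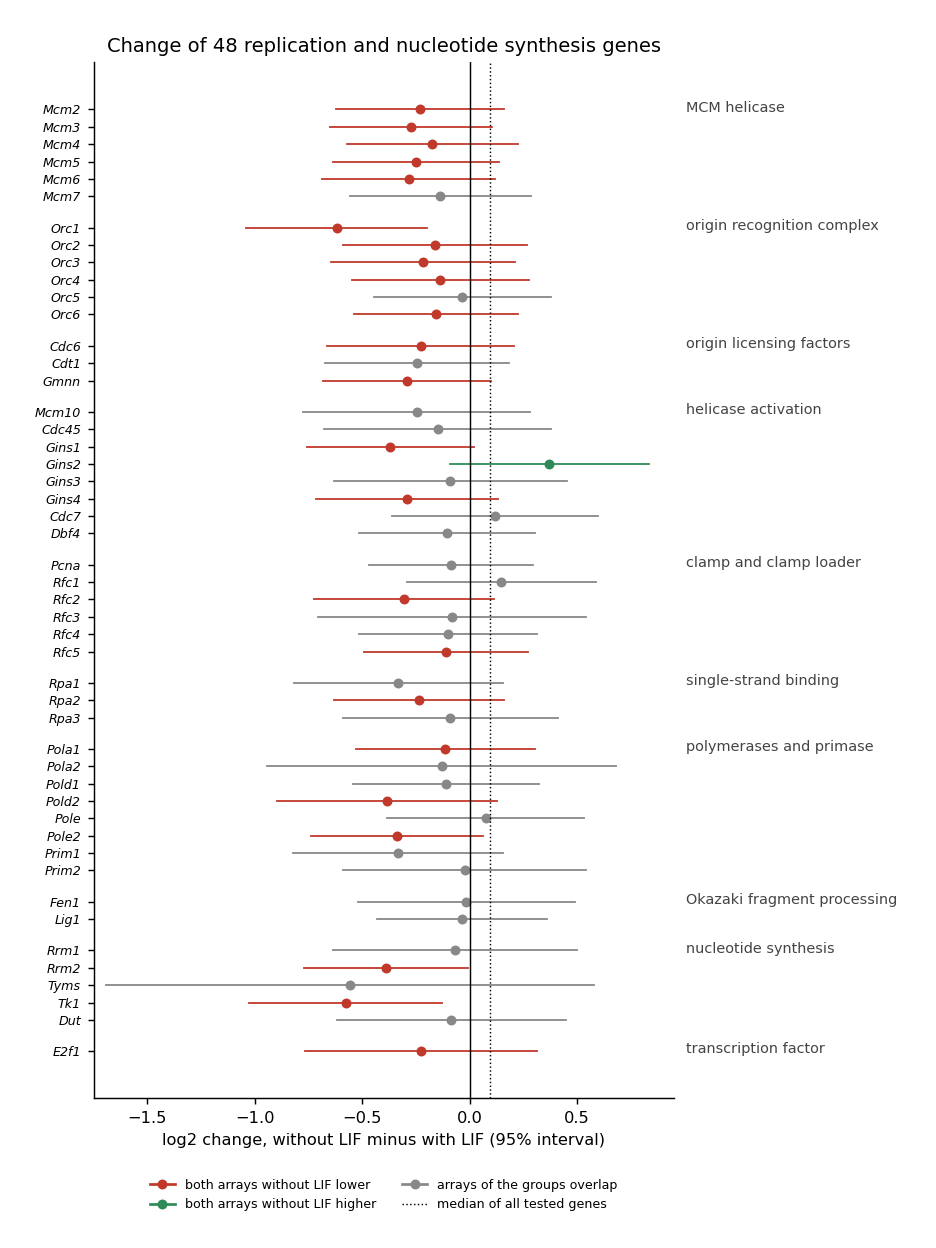
Log2 change (without LIF minus with LIF, horizontal axis) of each of the 48 members by role, with its 95% moderated interval; colours show whether the 2 arrays of each group overlap, and the dotted line is the median of all tested genes, 0.09. Most points lie left of 0, between -0.62 for Orc1 and 0.37 for Gins2.

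The size of the shift against other genes depended on signal and scaling. Members are bright probe sets: 44 of them had a mean signal of 1000 or more. Among the 4269 tested genes at that level the median change was -0.05, 23.9% were lower without overlap and 15.8% higher, against 22 and 1 of the 44 members. Quantile normalization moved the median of all genes by -0.07 and gave 20 members lower and 2 higher without overlap (18.3% and 21.3% of all genes). A common median per array moved it by -0.29 and gave 30 members lower and 0 higher (23.1% and 11.9% of all genes). Relative to all tested genes, the members' median lay at -0.25 as deposited and with a common median, and at -0.16 with quantile normalization. A common median shifts all genes of an array alike, so it cannot change this difference.

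**Figure D2:**
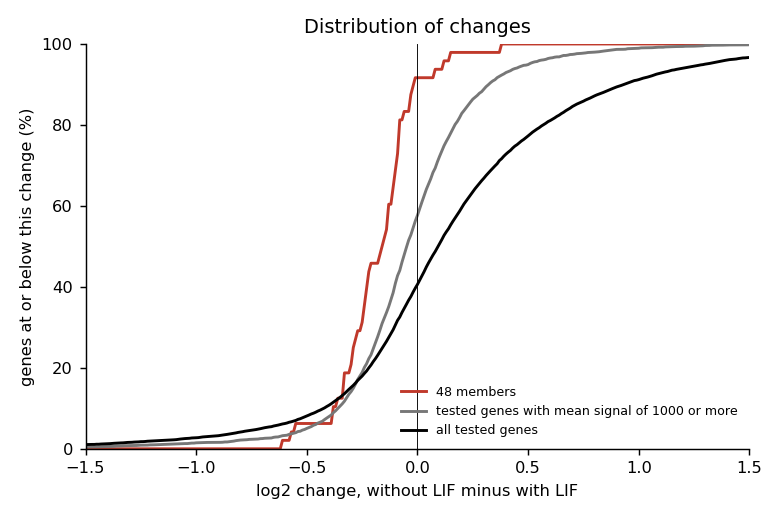
Cumulative share of genes (vertical axis, percent) at or below each log2 change (without LIF minus with LIF) for the 48 members, for tested genes with a mean signal of 1000 or more, and for all tested genes. The members' curve crosses its midpoint at -0.16, the bright genes' at -0.05 and that of all genes at 0.09.

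All 6 MCM helicase subunits had log2 changes below 0, and 0 of them passed the limma test (0 at an unadjusted p of 0.05 or less). The changes lay between -0.28 for Mcm6 and -0.14 for Mcm7, with a median of -0.24, and 5 were lower without overlap, against 15.2% of all tested genes and 23.9% of those with a mean signal of 1000 or more. Mcm2 had signals of 5759 and 5356 without LIF, against 6884 and 6166 with LIF (mean 5558 ± 284 and 6525 ± 508, SD, n = 2 each; log2 change -0.23, SE 0.17, limma adjusted p = 0.67). Both arrays without LIF lay below both with LIF. Mcm3 read 6407 and 5991 without LIF, against 7624 and 7335 with LIF, and its other 3 probe sets above a mean signal of 1000 had log2 changes of -0.31, -0.27 and -0.45. Mcm5 read 14149 and 15665 without LIF, against 16889 and 18560.2 with LIF. Mcm6 read 7194 and 8469 without LIF, against 9211 and 9810.2 with LIF. In each of these genes the groups did not overlap. Mcm4 read 6169 and 6319.6 without LIF, against 7612 and 6523 with LIF, so the array numbered 2 with LIF came close to the arrays without LIF. Its second probe set, nearly as bright, read 5950 and 4771 without LIF, against 6914 and 8627 with LIF (log2 change -0.54). Mcm7 overlapped, at 13641 and 17125 without LIF and 16539.9 and 17096 with LIF, and its change was 0.026 without the array numbered 1 of the group without LIF.

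In the origin recognition complex, the ATPase subunit Orc1 had the smallest unadjusted p of all 48 members. Orc1 read 1576 and 1812 without LIF, against 2568 and 2625 with LIF (mean 1694 ± 167 and 2596 ± 40.3, SD, n = 2 each). Both arrays without LIF lay well below both with LIF, and the log2 change was -0.62 (SE 0.18, limma adjusted p = 0.26), with -0.70 on the arrays numbered 1 and -0.53 on those numbered 2. Its 95% interval was -1.04 to -0.20. The dimmer second probe set of Orc1 had a log2 change of -0.10. The other 5 subunits had changes between -0.22 and -0.03. Orc2, Orc3, Orc4 and Orc6 were lower without overlap in their brightest probe set. With Orc1 this made 5 of the 6 subunits, against 15.2% of all tested genes and 23.9% of those with a mean signal of 1000 or more. The dimmer probe sets of Orc3 had changes of 0.02 and 0.36 and those of Orc4 0.14, 0.04 and -0.04, and averaging all probe sets of each gene put Orc3 at 0.055 and Orc4 at 0.0031. Orc5 overlapped, at 2611 and 2842 without LIF and 2943 and 2643 with LIF, with a change of 0.0029 after quantile normalization.

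Of the licensing factors, Cdc6, Cdt1 and the Cdt1 inhibitor geminin (Gmnn) had log2 changes of -0.23, -0.25 and -0.29. Gmnn read 5147 and 4723 without LIF, against 5786 and 6296 with LIF (SE 0.16, limma adjusted p = 0.58). Its groups did not overlap. Cdc6 read 3384 and 2894 without LIF, against 3972 and 3386 with LIF, so the highest array without LIF and the lowest with LIF were almost level. Cdt1, which overlapped, read 11869 and 13726 without LIF, against 13686 and 16726 with LIF.

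The 4 subunits of GINS, a ring-shaped part of the active helicase, did not read alike. Gins1 read 2784 and 2821 without LIF, against 3551 and 3689 with LIF (mean 2802 ± 26.3 and 3619.8 ± 97.9, SD, n = 2 each; log2 change -0.37, SE 0.16, limma adjusted p = 0.48). The replicates of each group lay close together and the groups apart. Gins4 read 3900.4 and 3701 without LIF, against 4213 and 5137 with LIF (log2 change -0.29). Gins2 read 2629 and 3302 without LIF, against 2125 and 2445 with LIF (log2 change 0.37, SE 0.20, limma adjusted p = 0.55). Its groups did not overlap, in the direction opposite to Gins1 and Gins4, and its other probe set had a log2 change of 0.20. With a common median per array the change of Gins2 was 0.077 and its groups overlapped. Gins3 overlapped, at 552 and 543 without LIF and 521 and 651 with LIF. The differences between subunits were not tested.

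The other helicase-activating genes overlapped between the groups. The kinase gene Cdc7 read 1722 and 1449 without LIF, against 1600.2 and 1326 with LIF (log2 change 0.12, SE 0.20, limma adjusted p = 0.88), and was -0.18 with a common median per array. Its activating subunit Dbf4 read 6093 and 7249 without LIF, against 7436 and 6859 with LIF. Mcm10 and Cdc45 had log2 changes of -0.25 and -0.15, each with 1 array with LIF, the one numbered 1, above the other 3 arrays.

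Pcna, the clamp that holds polymerases on DNA, differed little. It read 19041 and 21490.3 without LIF, against 21424 and 21574 with LIF (mean 20266 ± 1732 and 21499 ± 106, SD, n = 2 each; log2 change -0.09, SE 0.16, limma adjusted p = 0.89). The arrays overlapped, and the 95% interval was -0.47 to 0.29. Of the clamp loader subunits, Rfc2 read 1995 and 1916 without LIF, against 2577 and 2270.5 with LIF (log2 change -0.31, SE 0.18, limma adjusted p = 0.59), without overlap. Rfc1, the large subunit, read 2193 and 2692 without LIF, against 2155 and 2234 with LIF (log2 change 0.15, SE 0.19, limma adjusted p = 0.83), and was -0.15 with a common median per array. The other probe sets of Rfc1 had changes of 0.05 and -0.43, so they disagree in direction. Rfc3, Rfc4 and Rfc5 had changes of -0.08, -0.10 and -0.11, of which Rfc5 was without overlap.

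The single-strand binding proteins Rpa1, Rpa2 and Rpa3 had log2 changes of -0.33, -0.24 and -0.09. Rpa2 read 3381 and 3249 without LIF, against 3722 and 4097 with LIF, without overlap. Rpa1 read 14062 and 18815 without LIF, against 18606 and 22522 with LIF. Within each number Rpa1 was lower without LIF, but the array numbered 2 without LIF lay above the array numbered 1 with LIF. The other probe set of Rpa1 had a log2 change of -0.48, without overlap. That of Rpa2 had -0.32, with overlap.

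Among polymerase and primase genes, 3 of 8 were lower without overlap (37.5%, against 15.2% of all tested genes and 23.9% of those with a mean signal of 1000 or more), Pole2, Pold2 and Pola1. Pole2, the second subunit of the leading-strand polymerase epsilon, read 2356 and 2182 without LIF, against 2829.8 and 2908 with LIF (log2 change -0.34, SE 0.17, limma adjusted p = 0.53). Its groups lay clearly apart, while its dim second probe set, with signals between 35.2 and 57, had a log2 change of 0.39. Pole, the catalytic subunit of the same polymerase, read 1885 and 1710.3 without LIF, against 1883 and 1544 with LIF (log2 change 0.07, SE 0.19, limma adjusted p = 0.92), and was -0.22 with a common median per array. Pold2, a subunit of the lagging-strand polymerase delta, read 4407 and 3189.6 without LIF, against 5392 and 4453 with LIF (log2 change -0.39, SE 0.22, limma adjusted p = 0.58). The highest array without LIF and the lowest with LIF were within 1 SD of each other. The catalytic subunit Pold1 overlapped, with a change of -0.11. Prim1, the catalytic primase subunit, had a change of -0.33 and overlapped. The other probe set of Prim1 had a change of -0.40, without overlap. Prim2, the partner of Prim1, had -0.02. Pola2 differed more by number than by group, at 1237 and 759 without LIF and 1402 and 802 with LIF.

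The Okazaki fragment enzymes were near 0. The flap nuclease gene Fen1 read 3317 and 4600.1 without LIF, against 3655 and 4274 with LIF (log2 change -0.02). The DNA ligase gene Lig1 read 3412 and 3764 without LIF, against 3720.1 and 3629 with LIF (log2 change -0.04). In both genes the arrays of the groups overlapped, and after quantile normalization the changes were 0.036 for Fen1 and 0.028 for Lig1.

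In deoxynucleotide synthesis, thymidine kinase and the small ribonucleotide reductase subunit read lower, while the other 3 enzymes overlapped. Tk1, which salvages thymidine, read 2650.2 and 2225 without LIF, against 3319 and 3954 with LIF (mean 2438 ± 301 and 3637 ± 449, SD, n = 2 each; log2 change -0.58, SE 0.19, limma adjusted p = 0.33). Its groups did not overlap, and the change was -0.32 on the arrays numbered 1 and -0.83 on those numbered 2. Rrm2, the regulated subunit of ribonucleotide reductase, read 11151 and 10017 without LIF, against 13483 and 14191 with LIF (mean 10584 ± 802 and 13837 ± 500.3, SD, n = 2 each; log2 change -0.39, SE 0.16, limma adjusted p = 0.45). The groups did not overlap in this probe set of Rrm2. Its other probe sets had changes of -0.23 and -0.27, and in both the arrays of the groups overlapped. The large subunit Rrm1 read 4049 and 2991 without LIF, against 4324 and 3080.0 with LIF, and Dut, which removes dUTP, read 5087 and 6858 without LIF, against 5415 and 7252 with LIF. In both of these genes the numbers differed more than the groups.

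Tyms, thymidylate synthase, was measured poorly. Its brightest probe set read 128 and 106 without LIF, against 267 and 110.2 with LIF (log2 change -0.56, SE 0.48), and 1 array, numbered 1 with LIF, stood above the other 3. The 95% interval, -1.69 to 0.58, was the widest of the 48. E2f1 read 519 and 452 without LIF, against 532 and 604 with LIF (mean 486 ± 47.2 and 568 ± 50.7, SD, n = 2 each; log2 change -0.23, SE 0.23, limma adjusted p = 0.78). These arrays did not overlap, but the next brightest probe set of E2f1 had a log2 change of 0.28, so the probe sets disagree in direction.

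**Figure D3:**
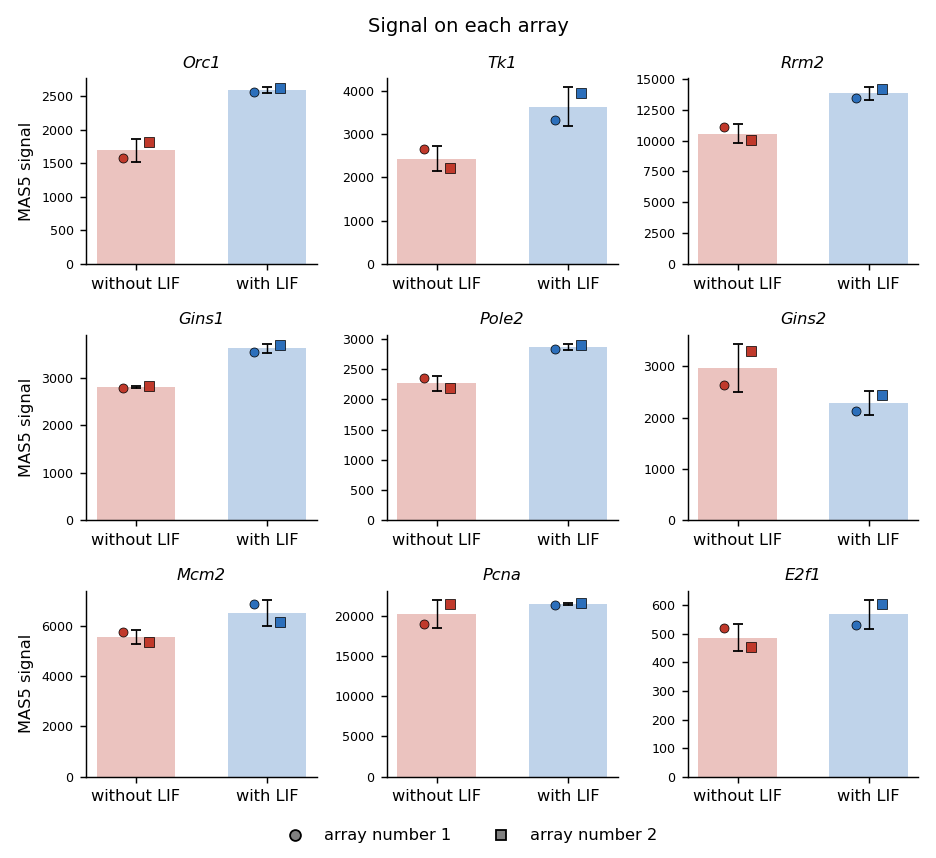
MAS5 signal (linear, vertical axis from 0) of 9 members without LIF (left, red) and with LIF (right, blue); bars are means, error bars SD of 2 arrays, and circles and squares the arrays numbered 1 and 2. Orc1, Tk1, Rrm2, Gins1 and Pole2 were lower without LIF on both arrays, Gins2 was higher, and the arrays of Pcna overlapped.

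Other probe sets of the same genes mostly read the same way. The 48 members had 106 probe sets, and 36 members had more than 1. Of the 25 further probe sets with a mean signal of 1000 or more, from 20 genes, 23 had the same sign as the chosen one, and their median log2 change was -0.18. The exceptions were of Pold1 and Prim2, at 0.09 and 0.02. Of all 51 further probe sets above the filter, 37 had the same sign. Probe sets of a gene share the RNA of the same arrays.

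The arrays numbered 1 and 2 differed in ways the groups do not explain. The control probe set for 18S ribosomal RNA read 451 without LIF and 462 with LIF for number 1, against 2990 without LIF and 5150 with LIF for number 2. The 3′ over 5′ signal ratio of Actb, which increases as RNA degrades, stood at 1.44 without LIF and 1.32 with LIF for number 1, and at 1.77 without LIF and 1.83 with LIF for number 2. Within the arrays numbered 1 the members' median change was -0.17 and within those numbered 2 it was -0.22. Over all tested genes these medians were 0.11 and 0.06, and over those with a mean signal of 1000 or more -0.08 and -0.02. The change was below 0 for 38 members within each number, for 32 in both, and above 0 in both for 4, Gins2, Cdc7, Rfc1 and Pole. The other 12 read opposite ways, among them Rpa3, with 0.17 and -0.35, and Rfc3, with 0.17 and -0.34. Across the 48 members the changes within the numbers correlated at r = 0.23, a description over genes that share these arrays. For 21 members the mean difference between the numbers was larger than that between the groups. With the number as a term beside group in limma, 2.62% of all tested genes were lower and 4.13% higher at an adjusted p of 0.05 or less, and 2 of the 48 members were lower, Orc1 (adjusted p = 0.023) and Tk1 (adjusted p = 0.045).

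**Figure D4:**
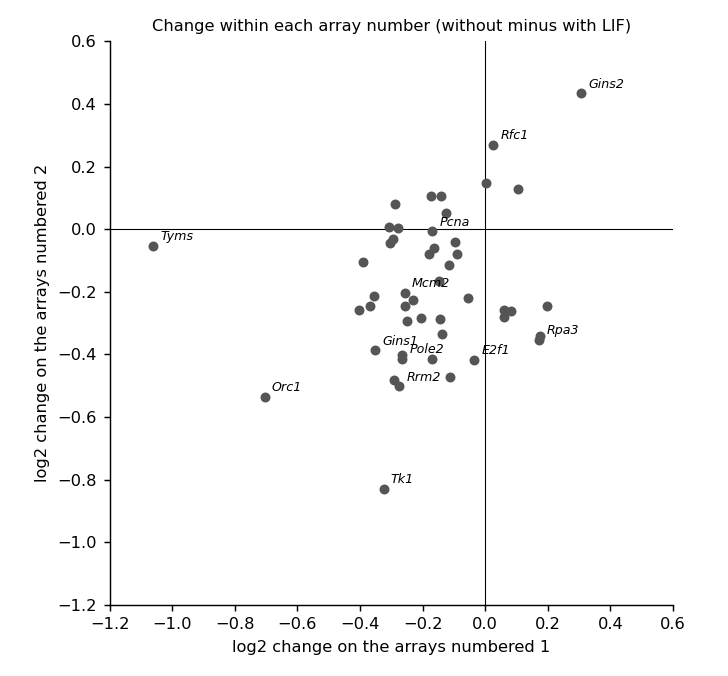
Log2 change (without LIF minus with LIF) of each of the 48 members on the arrays numbered 1 (horizontal axis) and on those numbered 2 (vertical axis), 1 point per gene. The lower left quadrant holds 32 genes, including Orc1, Tk1 and Rrm2, and the upper right 4, including Gins2.

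Further genes of the same pathways were described from wider lists. Of 32 tested replication proteins outside the 48, 0 passed the limma test in either direction (3 at an unadjusted p of 0.05 or less), 10 were lower and 4 higher without overlap, and the median change was -0.11. Over all tested genes 10.9% had such a p, 15.2% were lower and 27.3% higher without overlap, and among genes with a mean signal of 1000 or more 23.9% were lower and 15.8% higher. With the number as a term beside group, 2 of the 32 were lower with a limma adjusted p of 0.05 or less, Ticrr (0.015) and Dna2 (0.029). In that model 2.62% of all tested genes were lower and 4.13% higher at this threshold. Ticrr, which helps load Cdc45, read 654 and 645 without LIF, against 1284 and 1048 with LIF (log2 change -0.84, SE 0.21, limma adjusted p = 0.20). The groups lay well apart. The nuclease and helicase gene Dna2 had a log2 change of -0.56, the topoisomerase gene Top1 0.40 and the histone chaperone gene Asf1b -0.42, with limma adjusted p-values of 0.33, 0.45 and 0.51.

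Of 27 tested genes of nucleotide synthesis outside the 48, 0 passed (3 at an unadjusted p of 0.05 or less), 8 were lower and 3 higher without overlap (29.6% and 11.1%, against 15.2% and 27.3% of all tested genes and 23.9% and 15.8% of those with a mean signal of 1000 or more), and the median change was -0.09. With the number in the model, Prps1 and Shmt1 were lower (limma adjusted p of 0.018 and 0.027) and Prps2 was higher (limma adjusted p = 0.021). In that model 2.62% of all tested genes were lower and 4.13% higher at an adjusted p of 0.05 or less. The paralogs Prps1 and Prps2, which make the ribose donor for nucleotides, read in opposite directions. Prps1 read 3579 and 3655 without LIF, against 5198 and 5574 with LIF (log2 change -0.57, SE 0.16, limma adjusted p = 0.25). Prps2 read 4076 and 4804 without LIF, against 2887 and 3038 with LIF (log2 change 0.58, SE 0.17, limma adjusted p = 0.28). Neither gene overlapped between the groups. Shmt1, a folate enzyme that feeds thymidylate synthesis, had a log2 change of -0.55 and Ctps2, a CTP synthase, 0.51, with limma adjusted p-values of 0.30 and 0.48.

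Of the 9 other E2F and DP genes, 0 passed (3 at an unadjusted p of 0.05 or less), 1 was lower and 3 were higher without overlap (11.1% and 33.3%, against 15.2% and 27.3% of all tested genes), and the median change was 0.10. With the number in the model, E2f2 was lower and Tfdp2 higher with limma adjusted p-values of 0.017 and 0.023. In that model 2.62% of all tested genes were lower and 4.13% higher at an adjusted p of 0.05 or less. E2f2, an activating E2F, read 84.7 and 85.6 without LIF, against 272 and 219.7 with LIF (log2 change -1.52, SE 0.34, limma adjusted p = 0.15). This was a larger difference than that of any of the 48 members. Tfdp2, a dimer partner of E2Fs, read 1924 and 1984 without LIF, against 1298 and 1181 with LIF (log2 change 0.66, SE 0.18, limma adjusted p = 0.24), and E2f7, a repressing E2F, read 804 and 886 without LIF, against 534 and 561 with LIF (log2 change 0.63, SE 0.21, limma adjusted p = 0.34). In all 3 genes the groups did not overlap. E2f6, the next by p, had a change of 0.31 (limma adjusted p = 0.72).

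The labels and the cell type were checked on known genes. Socs3, the feedback inhibitor induced by LIF, read 360.0 and 261 without LIF, against 4827 and 6197 with LIF, and Bcl3 and Klf4 had log2 changes of -4.90 and -3.84. All 10 ES cell markers were above the filter, and their signals summed to 70804 and 98266 without LIF and 115156 and 135751 with LIF. Of 13 primitive endoderm markers 0 were below the filter, and their signals summed to 6028 (number 1) and 22232 (number 2) without LIF, against 4485 and 11238 with LIF. Of 10 fibroblast markers 1 was below the filter, with sums of 1975 and 1709.8 without LIF and 1402 and 1285 with LIF. The primitive endoderm and fibroblast sums were higher without LIF within each number and the ES cell sum was lower. Single markers differed: log2 changes were below 0 for 8 of 10 ES cell, 3 of 13 primitive endoderm and 3 of 9 tested fibroblast markers. Over all tested genes 40.6% were below 0. Of the ES cell markers 1, Esrrb, was lower at a limma adjusted p of 0.05 or less (log2 change -2.27, adjusted p = 0.031) and 0 were higher. Over all tested genes 0.145% passed. Lin28a, also an ES cell marker, had a log2 change of 0.87. Pdgfra is in both the fibroblast and the primitive endoderm list. The part of these cell types in the members' lower signals was not tested.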

How the data were processed

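The 4 arrays held signal intensities on a linear scale that the authors made with MAS5, per the submitters' processing notes; the sources used here do not give its version. Each array had been scaled: its mean signal, trimmed by 2% at either end, was 500.0 in the deposited table. Of 45101 probe sets, 34945 had 1 gene symbol, 932 several, 9160 none and 64 were controls. Entrez identifiers of all 48 members matched RefSeq, with 0 changed symbols.

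The 1 value at 0 was raised to 0.1 and log2 taken. Genes above the 30th percentile of mean log2 signal (4.51, a signal of 22.9) entered limma 3.58.1 (R 4.3.3; lmFit, then eBayes with a mean-variance trend), with group alone in the model, two-sided p-values, 2 degrees of freedom left for the residuals, Benjamini-Hochberg adjustment over 14445 genes and a threshold of 0.05. SE and 95% intervals are moderated. The fit was tested on simulated data in which every planted change was larger than that of any member. The simulation gives no check on changes as small as theirs. Precision is limited by the number of arrays, 2 per group. Figures used matplotlib 3.10.9 in Python 3.11.15.

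The members, lists and rules were chosen with earlier results of these data known. Full statistics are given for the 8 members with the smallest p lower without LIF, for all 4 that read higher, and for Pcna, Mcm2, Rrm2 and E2f1; up to 4 genes of each further list are named, by p. Alternatives were no filter, quantile normalization, a common median, a pseudocount of 16, no trend, the mean of probe sets, a block for the replicate number, leaving 1 array out in turn and, added after seeing the data, only genes with a mean signal of 1000 or more.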

Additional observations from a re-analysis of the deposited data

How the results depend on the processing

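All 48 members stayed short of the limma threshold under every alternative except the replicate block, where 2 were lower with an adjusted p of 0.05 or less, Orc1 (-0.62, 0.023) and Tk1 (-0.58, 0.045), against 2.62% of all genes. The numbers pair no samples by the labels; deviations from the group means correlated at 0.29 between arrays of the same number. Genes called over the whole table were 21, against 10 with quantile normalization, 131 with a common median, 53 with a pseudocount of 16, 12 with the mean of probe sets, 975 with the replicate block and 0 without the trend (1589 at an unadjusted p of 0.05 or less), and 7 to 496 with 1 array left out (7 without array 2 with LIF, 39 without array 1 with LIF, 303 without array 1 without LIF and 496 without array 2 without LIF). The members' median was -0.45 with a common median and -0.12 with the mean of probe sets, and -0.20 to -0.16 with 1 array left out. Relative to all genes it was -0.28 with no filter, -0.16 with quantile normalization, -0.25 with the pseudocount, -0.22 with the mean of probe sets, -0.11 among genes with a mean signal of 1000 or more, and -0.31 to -0.24 with 1 array left out. Members higher without overlap numbered 1, against 2 with quantile normalization, 0 with a common median and 3 with the mean of probe sets, and 4 to 6 with 1 array left out, where 30 to 33 were lower; a group of 1 array overlaps less easily. The cause of the other differences was not tested. For the mean of probe sets and with 1 array left out, the share of all tested genes without overlap was not counted. The counts of members without overlap in those settings therefore cannot be compared with other genes.

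Of the 48 members, 24 kept the sign of their change under all 11 alternatives that did not restrict the genes to bright ones. With quantile normalization Orc5, Fen1 and Lig1 read 0.0029, 0.036 and 0.028. With a common median Cdc7, Rfc1 and Pole read -0.18, -0.15 and -0.22. With the mean of probe sets Orc3, Orc4, Cdt1, Rfc1, Pola2, Pole2, Prim2 and Rrm1 read 0.055, 0.0031, 0.070, -0.080, 0.49, 0.024, 0.38 and 0.35. With 1 array left out the changes ranged from -0.36 to 0.059 for Cdc45, -0.018 to 0.25 for Cdc7, -0.23 to 0.021 for Dbf4, -0.30 to 0.13 for Dut, -0.25 to 0.22 for Fen1, -0.25 to 0.071 for Gins3, -0.11 to 0.035 for Lig1, -0.50 to 0.0034 for Mcm10, -0.30 to 0.026 for Mcm7, -0.11 to 0.044 for Orc5, -0.53 to 0.27 for Pola2, -0.26 to 0.036 for Pold1, -0.069 to 0.22 for Pole, -0.33 to 0.28 for Prim2, -0.00039 to 0.30 for Rfc1, -0.45 to 0.28 for Rfc3, -0.21 to 0.011 for Rfc4, -0.34 to 0.16 for Rpa3, -0.31 to 0.18 for Rrm1 and -1.19 to 0.081 for Tyms.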
